A study of Mus musculus with 6 samples.

Results

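The proteasome genes were read in regulatory T (Treg) cells sorted from mice as 48 of the 12394 genes compared. They were chosen by symbol: every gene with at least 1 probe set naming it alone and a symbol of the form Psma, Psmb, Psmc, Psmd, Psme, Psmf or Psmg followed by a digit. By role they comprised 14 constitutive subunits of the core, 3 immunoproteasome subunits, 17 subunits of the cap, 3 activators, 1 inhibitor, 7 assembly chaperones and 1 core subunit restricted to the testis. A further 2 genes, Psmc3ip and Psme3ip1, matched by spelling only, since they encode proteins that bind a proteasome component and are not subunits. Psme2 had its probe set in common with Psme2b and was left out by the rule, and Psmb11, the core subunit of the thymus, was not among the genes compared.

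The proteasome is the protease complex that degrades proteins tagged with ubiquitin. Its barrel-shaped core has rings of alpha subunits, which form the gate, and of beta subunits, 3 of which (Psmb5, Psmb6 and Psmb7) cut peptide bonds, and a cap of ATPases and other subunits recognises, unfolds and feeds in the substrate. In lymphocytes, and in other cells under interferon, the catalytic subunits are partly replaced by Psmb8, Psmb9 and Psmb10, which changes the peptides offered to major histocompatibility complex class I.

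The cells were CD4+CD25+YFP+ and came from spleen and lymph nodes. In these mice YFP is joined to a Cre recombinase made from the Foxp3 locus, so that deletion is directed at cells that express Foxp3. Gata3F/F Foxp3YFP-Cre mice, with both Gata3 alleles floxed, gave 3 arrays titled GATA3KO, called deficient-labelled here. Gata3F/+ Foxp3YFP-Cre mice, which carried the same Cre and 1 floxed allele, gave 3 arrays titled WT, called sufficient-labelled. Replicates are named by these labels. The design text gives 3 mice in each group, and the age of the mice was not given in the sources used here. The arrays are Affymetrix arrays, and every level below is a log2 intensity after the authors' normalization (RMA). A difference of 1 is a doubling, levels of different genes are not comparable, and changes are given as deficient minus sufficient.

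The arrays' medians were 6.06 to 6.11, and precision is limited by there being 3 arrays in a group. The single Gata3 probe set did not read lower in the arrays labelled Gata3-deficient (9.84 ± 0.14 against 9.48 ± 0.08, SD, n = 3 each; limma adjusted p = 0.0387, and 0.0319 to 0.182 with 1 array left out). Which part of Gata3 it reads was not analysed here, and every direction below therefore rests on the labels. Of 9 T cell and Treg markers 8 lay above the dim range, the lowest 40% of genes, while Foxp3 itself read 3.92 on average, within it. In these bulk samples a change in the share of a cell type and a change in RNA per cell cannot be told apart.

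The promoters of the catalytic subunits and their immunoproteasome partners are shown because these pairs exchange with one another in the core. RefSeq promoters (GRCm38.p6) were matched for 40 of the 48 genes, and Psmb7 was not among them. Each stretch runs from 120 bases before to 50 bases after the annotated start, 5′ to 3′ on the gene's strand: Psmb5 at chr14:54617946-54618115 (minus), Psmb6 at chr11:70525237-70525406 (plus), Psmb8 at chr17:34198075-34198244 (plus), Psmb9 at chr17:34187281-34187450 (minus) and Psmb10 at chr8:105938343-105938512 (minus). Capitals mark matches to TGACNNNGC, the core of the antioxidant response element read by Nfe2l1 and Nfe2l2.
Psmb5: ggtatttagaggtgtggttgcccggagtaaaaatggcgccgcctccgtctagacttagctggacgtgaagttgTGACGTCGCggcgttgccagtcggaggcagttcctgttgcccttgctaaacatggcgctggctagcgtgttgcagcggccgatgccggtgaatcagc
Psmb6: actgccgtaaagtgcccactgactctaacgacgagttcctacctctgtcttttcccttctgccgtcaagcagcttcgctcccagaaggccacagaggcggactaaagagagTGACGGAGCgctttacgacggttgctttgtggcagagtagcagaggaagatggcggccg
Psmb8: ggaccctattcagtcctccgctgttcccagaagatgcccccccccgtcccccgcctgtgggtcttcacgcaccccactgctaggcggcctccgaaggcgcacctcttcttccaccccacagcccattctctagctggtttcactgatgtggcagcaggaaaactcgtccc
Psmb9: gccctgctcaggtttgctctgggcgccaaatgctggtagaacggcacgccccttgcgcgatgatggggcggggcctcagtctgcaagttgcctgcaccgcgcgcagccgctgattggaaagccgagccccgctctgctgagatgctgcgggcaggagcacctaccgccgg
Psmb10: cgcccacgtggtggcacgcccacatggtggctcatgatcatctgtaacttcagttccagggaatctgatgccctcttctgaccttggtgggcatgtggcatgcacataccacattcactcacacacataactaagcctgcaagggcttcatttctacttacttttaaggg

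Psmb5 and Psmb6 held the antioxidant response letters, starting 47 and 9 bases before the start. The stretches of Psmb8, Psmb9 and Psmb10 held no match to these letters. In the whole 43 promoters of the 40 genes, searched on both strands, the antioxidant letters occurred in 6 (14.0%), against 12.39% of all 32851 promoters. The 6 were those of Psmb5, Psmb6, Psmc6, Psmd9, Psmd12 and Psme4. A pair of GAAA words 2 bases apart, the interferon-stimulated response element, occurred in 11.6% against 3.44%, in Psmb3, Psmd4, Psmd9, Psme1 and Psmg4. GGGCGG, the box of Sp1, occurred in 53.5% against 35.66%, and CCAAT, the box of NF-Y, in 34.9% against 37.41%. Of the letters of GATA factors, AGATAA occurred in 3 of 43 promoters (7.0%), against 11.18% of all promoters, and TGATAA in 2 of 43 (4.7%), against 9.05%. No difference between these shares was tested. These matches are descriptions of letters, and no factor binding was measured.

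No proteasome gene passed the test, but most of them read slightly higher in the arrays labelled Gata3-deficient. Over the 48 genes the change was positive in 39, with a median of 0.071 (a 1.05-fold difference), beside 53.0% positive and a median of 0.0078 over all genes. By limma with Benjamini-Hochberg adjustment 0 genes were higher and 0 lower at an adjusted p under 0.05, where 1.44% of all genes were higher and 0.766% lower. An unadjusted p under 0.05 was reached by 10 on the higher side and 0 on the lower, against a background of 8.63% and 5.8%. The arrays of the 2 groups were fully apart in 17 genes on the higher side and in 1 on the lower, where 11.3% and 8.51% of all genes were. Most of these genes were bright: 25 of 48 lay at or above the 90th percentile of all genes. Among genes with a mean log2 intensity of at least 8, a limit chosen after the data were seen, the change was positive in 34 of 41 proteasome genes against 55.2% of all such genes, and 16 did not overlap on the higher side against 17.5%.

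**Figure D1:**
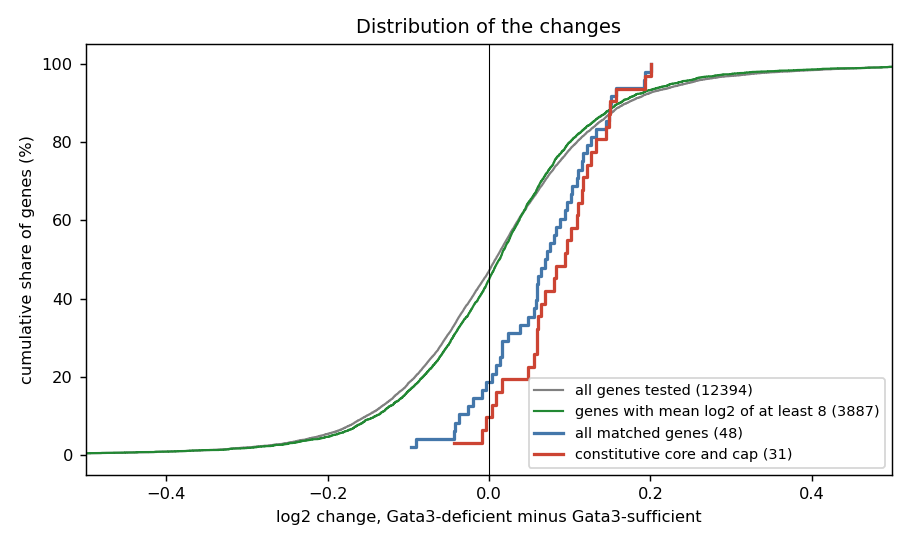
Cumulative share of genes (vertical axis, percent) by log2 change, labelled Gata3-deficient minus Gata3-sufficient (horizontal axis), for all 12394 genes, the 3887 genes with a mean log2 of at least 8, the 48 genes matched by symbol, and the 31 genes of the constitutive core and the cap. The curve of the core and cap crosses 0 with 3 of 31 genes on the negative side and ends at 0.20.

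All of these changes were small. The largest was 0.20 (Psma5, 1.15-fold) and the lowest -0.096 (Psmd10). On the probe set used, among the 47 genes above the dim range, no 95% confidence interval of limma reached beyond 0.35 on the higher side (Psmd9) or -0.24 on the lower (Psmb4). Other probe sets gave wider intervals, such as -0.37 to 0.057 for the second one of Psmd6. Psma8, the testis-restricted alpha subunit, was the 1 dim gene, at a mean of 3.49.

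**Figure D2:**
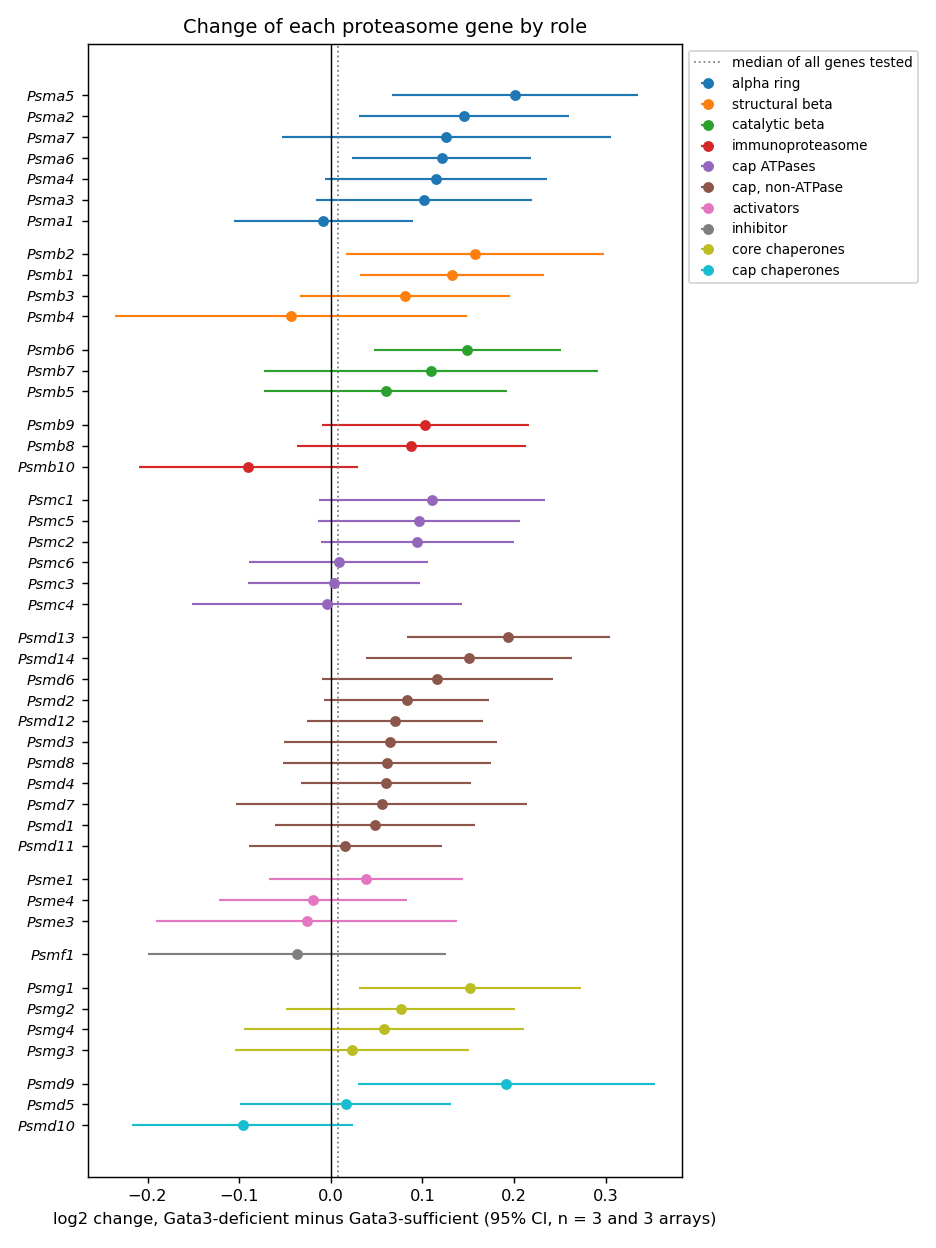
Log2 change of each proteasome gene (points) with limma's 95% confidence interval (lines), labelled Gata3-deficient minus Gata3-sufficient, n = 3 and 3 arrays, grouped by role and sorted within each role. The dotted line is the median of all genes tested, 0.0078; points of the core and cap lie mostly to its right, while activators and the inhibitor lie around it.

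In the alpha ring 6 of 7 genes had a positive change (median 0.12). Psma5 read 9.76, 9.93 and 9.99 in the sufficient-labelled arrays and 10.07, 10.10 and 10.10 in the deficient-labelled ones. All 3 of the latter lay above the former, by a change of 0.20 ± 0.06 (SE, adjusted p = 0.133, limma). Its other bright probe set had a change of 0.090, so the size depends on the probe set. Psma2 read 11.23, 11.14 and 11.34 against 11.40, 11.40 and 11.35, again without overlap (0.14 ± 0.05, adjusted p = 0.213). Psma6 read 11.27, 11.28 and 11.36 against 11.37, 11.47 and 11.43 (0.12 ± 0.04, adjusted p = 0.221). Psma3 did not overlap either (0.10), whereas Psma4 (0.12) and Psma7 (0.13) had sufficient replicate 3 above at least 1 deficient-labelled array. Psma1 was the exception, at 10.35, 10.34 and 10.42 against 10.35, 10.41 and 10.33 (-0.0083 ± 0.0435, 95% interval -0.11 to 0.089).

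Of the structural beta subunits, Psmb1 and Psmb2 had the larger changes. Psmb1 read 11.13, 11.10 and 11.18 against 11.34, 11.25 and 11.22, with the groups apart (0.13 ± 0.05, SE, adjusted p = 0.191, limma). Psmb2 read 9.68, 9.58 and 9.83 against 9.82, 9.86 and 9.89, where sufficient replicate 3 overlapped the deficient range (0.16 ± 0.06, adjusted p = 0.279). Psmb3 had a change of 0.081. Psmb4 had -0.044 on its brightest probe set, which can read near-identical copies, and 0.12 on its other one. No direction can be given for Psmb4 from these arrays.

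The catalytic beta subunits all had positive changes, but Psmb6 alone had groups that did not overlap. Psmb6, the subunit that cuts after acidic residues, read 9.70, 9.65 and 9.73 in the sufficient-labelled arrays and 9.88, 9.86 and 9.80 in the deficient-labelled ones. The change was 0.15 ± 0.05 (SE, n = 3 each, adjusted p = 0.147, limma). Psmb5, with the chymotrypsin-like activity, read 9.52, 9.51 and 9.65 against 9.52, 9.65 and 9.68. Its lowest deficient array lay among the sufficient ones, and the change was 0.060 ± 0.059 (adjusted p = 0.722). Psmb7, with the trypsin-like activity, read 7.53, 7.61 and 7.35 against 7.51, 7.64 and 7.67 (0.11 ± 0.08, adjusted p = 0.618), with a wide spread in both groups.

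None of the immunoproteasome subunits passed the test, with a positive change in Psmb8 and Psmb9 and a negative one in Psmb10. Psmb8 read 11.57, 11.62 and 11.67 in the sufficient-labelled arrays and 11.59, 11.80 and 11.74 in the deficient-labelled ones. Deficient replicate 1 lay within the sufficient range, and the change was 0.088 ± 0.056 (SE, 95% interval -0.037 to 0.21, adjusted p = 0.544, limma). Psmb9 read 10.94, 10.80 and 10.97 against 11.03, 10.98 and 11.01, with the groups narrowly apart (0.10 ± 0.05, adjusted p = 0.398). Psmb10 read 10.39, 10.37 and 10.43 against 10.21, 10.40 and 10.32. Its change was -0.090 ± 0.053 (adjusted p = 0.505), and deficient replicate 2 lay among the sufficient arrays.

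**Figure D3:**
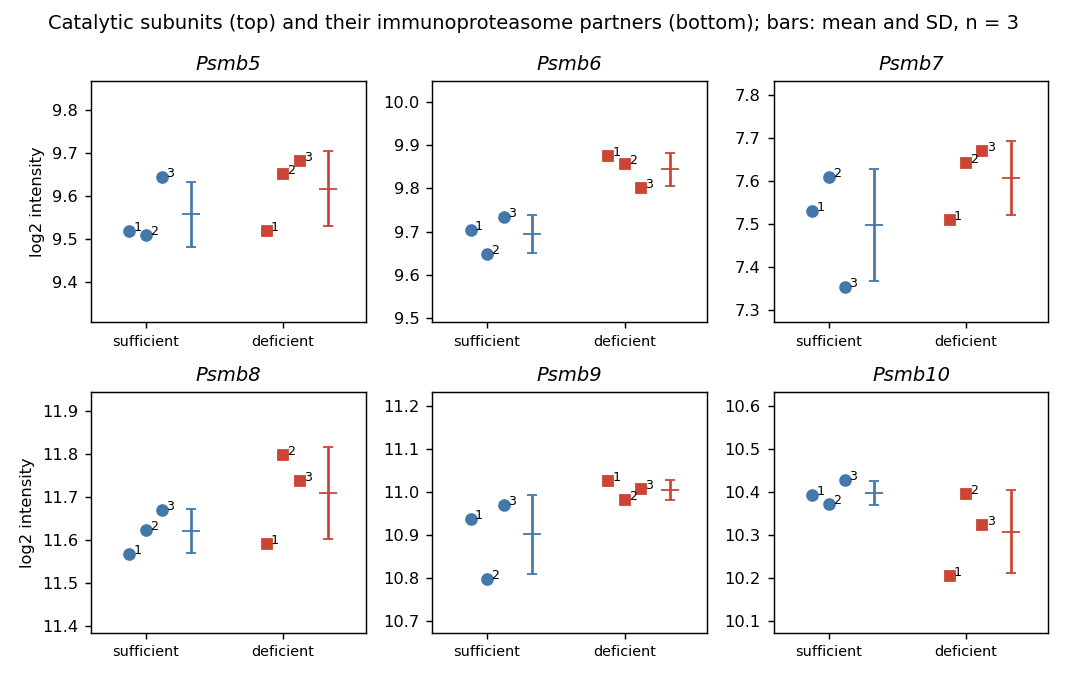
Log2 intensity (vertical axes, each spanning the same range around the gene's mean) on each array, numbered by replicate, of the constitutive catalytic genes in the top row and the immunoproteasome gene that replaces each in the bottom row, with mean and SD bars (n = 3). Psmb6 and Psmb9 have no overlap between groups, and Psmb10 is the 1 gene with a lower mean in the arrays labelled Gata3-deficient.

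Each immunoproteasome gene was also read against the constitutive gene it replaces, as the difference of the pair within an array. Only the shift of that difference between groups was compared, in an exact two-sided permutation test of 3 arrays against 3, which cannot go below p = 0.1. For Psmb10 minus Psmb7 the difference was 2.86, 2.76 and 3.08 in the sufficient-labelled arrays and 2.70, 2.76 and 2.66 in the deficient-labelled ones. The shift was -0.20, with the groups apart (exact p = 0.1, adjusted p = 0.3 over the 3 pairs), and -0.11 without sufficient replicate 3. Psmb9 minus Psmb6 shifted by -0.046 (exact p = 0.3, adjusted p = 0.45) and Psmb8 minus Psmb5 by 0.028 (exact p = 0.5, adjusted p = 0.5), both with overlapping groups. With this floor no pair could have been called, so the test says nothing on whether the pairs differ.

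The genes most like the mean profile of the 3 immunoproteasome genes over the 6 arrays were Psmg4 (Pearson r = 0.94), Psmb5 (0.92), Psma6 (0.78), Psmd8 (0.75) and Psmb2 (0.74). These values describe 6 arrays of 2 groups and include the difference between the groups.

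In the cap the change was positive in 16 of 17 genes (median 0.065), and 8 did not overlap on the higher side. Over all genes 53.0% were positive and 11.3% did not overlap on that side. Among genes with a mean log2 of at least 8 these shares were 55.2% and 17.5%. Among the ATPases, which unfold the substrate, Psmc1 (0.11), Psmc5 (0.096) and Psmc2 (0.094) led, and Psmc6 (0.0086), Psmc3 (0.0035) and Psmc4 (-0.0041) lay at 0. Psmc1 read 8.70, 8.65 and 8.80 against 8.86, 8.81 and 8.82, so that its groups touched without overlap (adjusted p = 0.409, limma). All 11 non-ATPase subunits had positive changes, from 0.016 (Psmd11) to 0.19 (Psmd13).

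Psmd13, a scaffold subunit of the lid, had the smallest adjusted p of the 48 genes. It read 8.35, 8.31 and 8.34 in the sufficient-labelled arrays and 8.50, 8.53 and 8.54 in the deficient-labelled ones, with a spread far smaller than the difference (0.19 ± 0.05, SE, adjusted p = 0.0846, limma). Over 14 alternative settings its adjusted p ran from 0.0313 to 0.286, and only array quality weights took it past the threshold. The other probe set of Psmd13 read 7.27, 7.56 and 7.49 against 7.63, 7.45 and 7.59. There the change was 0.12 and the groups overlapped. Psmd14, the enzyme that removes ubiquitin chains from substrates, read 10.59, 10.59 and 10.70 against 10.83, 10.71 and 10.80. Its groups were just apart (0.15 ± 0.05, adjusted p = 0.183). Psmd2, a large scaffold subunit that docks ubiquitin shuttles, read 9.90, 9.89 and 9.89 against 9.97, 9.96 and 9.99 (0.083 ± 0.040, adjusted p = 0.394).

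Psmd4, the ubiquitin receptor of the cap, also had groups apart (0.060), as did Psmd3 (0.065) and Psmd12 (0.070). Psmd6 had 0.12 on its brightest probe set and -0.16 on its other one, which leaves its direction unsettled. Psmd1, Psmd7 and Psmd8 had changes of 0.048, 0.056 and 0.061 with overlapping groups.

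None of the activators nor the inhibitor passed the test, and their changes lay between -0.037 and 0.038. Psme1, a subunit of the interferon-inducible activator ring, read 11.57, 11.62 and 11.69 in the sufficient-labelled arrays and 11.74, 11.62 and 11.64 in the deficient-labelled ones (0.038 ± 0.047, SE, 95% interval -0.068 to 0.14, adjusted p = 0.789, limma). Psme3, the nuclear activator, read 7.60, 7.45 and 7.54 against 7.41, 7.61 and 7.49 (-0.026 ± 0.073, adjusted p = 0.919). Psme4, which encodes a large single-chain activator, read 9.12, 9.10 and 9.17 against 9.09, 9.13 and 9.12 (-0.019 ± 0.046, adjusted p = 0.901). The groups overlapped in all of them, and also in Psmf1, which encodes an inhibitor of the core (-0.037, 95% interval -0.20 to 0.13). That their changes differ from those of the core was not tested.

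The assembly chaperones, which help to build the core or the cap and then leave, had positive changes in 6 of 7 genes. Psmg1, a chaperone of the alpha ring, read 9.04, 9.05 and 9.19 against 9.21, 9.27 and 9.25, with the groups apart (0.15 ± 0.05, SE, adjusted p = 0.218, limma). Psmg2, its partner, had 0.076, Psmg4 0.058 and Psmg3 0.023, all with overlap. Psmd9, a chaperone of the cap's base, read 6.73, 6.70 and 6.61 against 6.90, 6.88 and 6.83 (0.19 ± 0.07, adjusted p = 0.252). Psmd10, another chaperone of the base that also binds cell cycle regulators, was the only one of the 48 genes with groups apart on the lower side. It read 8.40, 8.41 and 8.47 against 8.27, 8.37 and 8.34 (-0.096 ± 0.054, adjusted p = 0.476). Psmd5 had a change of 0.016. The genes matched by spelling had 0.072 (Psmc3ip) and -0.042 (Psme3ip1).

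Taking each gene's deviation from its mean over the 6 arrays, the constitutive core averaged -0.083, -0.087 and 0.015 in the sufficient-labelled arrays and 0.062, 0.056 and 0.037 in the deficient-labelled ones. The core was thus lowest in sufficient replicates 1 and 2, and replicate 3 of that group lay nearer to the deficient-labelled arrays than to its own group. The cap averaged -0.043, -0.052 and -0.014 against 0.029, 0.046 and 0.033, again with sufficient replicate 3 the highest of its group. The immunoproteasome averaged -0.024, -0.059 and 0.032 against -0.050, 0.068 and 0.032, with overlap and with deficient replicate 1 the second lowest. Over the 31 genes of core and cap, sufficient replicate 2 was the lowest array for 15 genes and the highest for 0. Deficient replicates 1 and 3 were each the highest for 10.

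**Figure D4:**
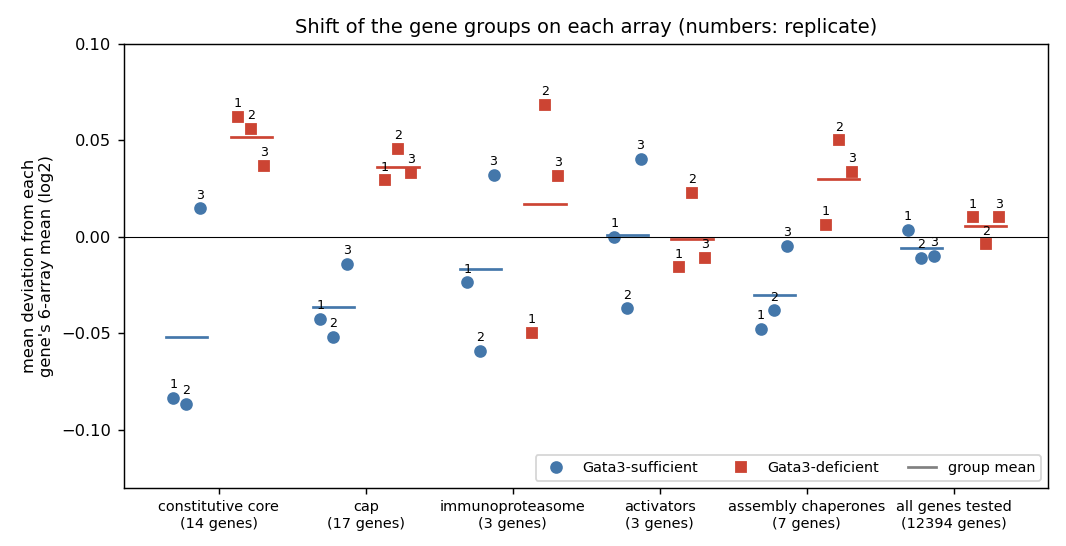
Mean deviation of each gene group from its genes' 6-array means (log2, vertical axis) on each array, as points numbered by replicate with group means as lines. Core, cap and assembly chaperones are apart between the groups, with sufficient replicate 3 nearest to the deficient-labelled arrays; immunoproteasome and activators overlap, and all genes stay between -0.011 and 0.010.

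Other genes of the pathway were read from lists of partners, regulators and neighbouring steps. Of 15 measured genes listed as proteasome partners or as separate peptidases, 5 had a positive change. The 1 that rose was a peptidase, and 0 fell. Over all genes 53.0% had a positive change, 1.44% were called higher and 0.766% lower. Blmh, the cysteine peptidase bleomycin hydrolase, read 8.60, 8.66 and 8.79 against 8.94, 8.97 and 8.98 and rose 1.21-fold (0.28 ± 0.06, SE, adjusted p = 0.0409, limma). With 1 array left out it passed in 1 of 6 fits, only without sufficient replicate 3, with adjusted p up to 0.182, and it did not pass without the intensity trend (0.146) or with the other choices of probe set (0.0542 and 0.318). Rad23b, a ubiquitin shuttle, had -0.29 and Zfand5, a proteasome-binding zinc finger protein, 0.19, neither past the threshold. With 1 array left out Rad23b ran from -0.46, without deficient replicate 3, where it passed (adjusted p = 0.0394, limma), to -0.15, without deficient replicate 1, and Zfand5 from 0.070 to 0.26.

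Of 13 regulators of proteasome genes 0 passed. An unadjusted p under 0.05 was reached by 0 on the higher side and 2 on the lower, against 8.63% and 5.8% of all genes. Nfya, a subunit of NF-Y, had -0.30, and Nfe2l2, a stress factor that reads antioxidant response elements, had -0.16 (limma adjusted p = 0.121 and 0.315). Nfyc, another subunit of NF-Y, had 0.096. Of 4 genes of the p97 unfoldase and peptide trimming measured from a list of 10, 0 passed by limma, and Npepps alone reached an unadjusted p under 0.05. These were Vcp (0.051), the unfoldase itself, its adaptors Ufd1 (0.0038) and Nploc4 (0.0032), and Npepps (-0.16), an aminopeptidase.

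In class I presentation, which takes up the peptides that the immunoproteasome makes, 0 of 11 measured genes passed by limma. An unadjusted p under 0.05 was reached by 1 on each side, against 8.63% of all genes on the higher and 5.8% on the lower. Tap2, a subunit of the peptide transporter, had 0.16 (adjusted p = 0.271), Pdia3, a chaperone of the loading complex, -0.15 (0.139) and H2-D1, a class I heavy chain, -0.087 (0.403).

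Among 11 measured genes of the interferon pathway that induces the immunoproteasome, 0 rose and 2 fell. Of all genes 1.44% were called higher and 0.766% lower. Jak1, the kinase of interferon receptors, read 11.44, 11.50 and 11.49 against 11.29, 11.27 and 11.15 and fell by 0.24 (SE 0.05, adjusted p = 0.0330, limma). Ifnar1, a chain of the type I interferon receptor, read 8.76, 8.76 and 8.78 against 8.45, 8.59 and 8.46 and fell by 0.27 (SE 0.05, adjusted p = 0.0398). Ifnar2, the other chain, had 0.18 (adjusted p = 0.151). With 1 array left out Jak1 passed in 2 of 6 fits, without sufficient replicate 1 or deficient replicate 1, and Ifnar1 in 0, with adjusted p up to 0.159 and 0.168. Neither passed without the intensity trend (0.174 and 0.140).

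Proliferation markers differed between the groups, and no marker of another cell type passed the test. All 8 proliferation markers had positive changes and 6 of them rose, where 1.44% of all genes were called higher. The log2 of the markers' summed intensity was 11.91 to 12.07 in the sufficient-labelled arrays and 12.18 to 12.21 in the deficient-labelled ones. Pcna, the brightest of them at a mean of 11.79, makes up most of that sum and did not pass (0.11, adjusted p = 0.237, limma). The proliferation markers deviated by -0.27, -0.48 and -0.090 in the sufficient-labelled and by 0.22, 0.25 and 0.36 in the deficient-labelled arrays, where sufficient replicate 3 was again nearest to the deficient ones. The 9 T cell and Treg markers also all had positive changes with 0 past the threshold, and summed to 14.08 to 14.21 against 14.21 to 14.25. Myeloid and dendritic markers had a positive change in 7 of 8 genes with 0 past the threshold, and summed to 8.33 to 8.62 against 8.62 to 9.18. The largest was 1.02 for Lyz2, with the groups narrowly apart (adjusted p = 0.0849, limma). Neutrophil markers had a positive change in 6 of 6, also with 0 past the threshold, and summed to 7.41 to 7.49 against 7.55 to 8.41. All 6 genes were in the dim range, and the largest change was 1.10 for S100a9, with the groups apart (adjusted p = 0.113, limma). B cell markers had a positive change in 4 of 6 genes and summed to 8.08 to 8.16 against 8.13 to 8.22, with 4 of 6 dim. Cd79b, the brightest of them, had 0.23 and Ms4a1 -0.40, neither past the threshold. NK cell markers had a positive change in 1 of 3 genes and summed to 7.47 to 7.67 against 6.71 to 7.32. In that list Klrd1, a receptor chain of NK cells, had -0.71, with the groups apart (adjusted p = 0.177, limma). Plasma cell markers had a positive change in 2 of 4 genes and summed to 10.78 to 11.11 against 10.82 to 10.97. Among them Jchain, the joining chain of secreted antibodies, had -0.78 with overlap (adjusted p = 0.179, limma). Their part in the proteasome values was not tested.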

How the data were processed

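RNA of sorted Treg cells was hybridised to Affymetrix arrays, 3 in each group. The deposited table holds log2 intensities of 22690 probe sets, which the authors made by RMA (background correction, quantile normalization and probe summary), per the submitters' processing notes. The version was not given in the sources used here. The titles of the arrays gave the groups. Probe sets were named through the platform annotation (20393 with 1 gene, 691 with several, 1606 not listed), and the one with the highest mean stood for each of 12394 genes. No dim filter was applied; dim means below the 40th percentile of genes (5.55).

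The comparison was two-sided, with limma 3.58.1 in R 4.3.3 (lmFit and trended eBayes), with Benjamini-Hochberg adjustment over all 12394 genes at 0.05. The fit was run on simulated data with added changes from small to large, and only recovery of the largest was required. The share recovered among small changes, of the size seen in the proteasome genes, is not given here. Errors are SDs over 3 arrays or limma's SE. Counts and medians of groups are descriptions without a test. The design text gives 3 mice a group, and limma's p-values set each difference against the spread between these samples, moderated over all genes.

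The members and gene lists were chosen with earlier results of these data known. Named were all catalytic, immunoproteasome and activator genes, the extremes of every other role, genes whose groups did not overlap, and, in the other lists, genes past the threshold and the 3 smallest p. Alternatives were a replicate block, no trend, robust variance, dim genes left out, renewed quantile normalization, median centring, array weights, other probe set choices and each array left out. Figures used matplotlib 3.10.9 in Python 3.11.15. Results of an item withheld for evaluation are not reported here.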

Additional observations from a re-analysis of the deposited data

How the results depend on the processing

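No proteasome gene was called in either direction under 14 of the 15 alternatives; array quality weights called 1 higher (Psmd13, change 0.20, adjusted p = 0.0313). The number with a positive change stayed between 33 (of 40 genes, probe sets without x, s or a in the name) and 42 of 48. Groups did not overlap on the higher side in 13 genes after renewed quantile normalization, median centring or the mean of all probe sets. With the restricted probe sets this held for 10 of 40, and with 1 array left out, which makes overlap less likely, for 18 to 25. The share of all genes without overlap was not counted under these settings, so these counts have no background beside them. The median change of the core stayed positive in all 15 settings (0.088 to 0.15), as did that of the cap (0.048 to 0.079). That of the activators changed sign, from -0.033 to 0.0069 with 1 array left out and, averaging all probe sets, 0.036. The assembly chaperones moved from 0.058 to 0.084 with array weights and 0.037 to 0.11 with 1 array left out. The immunoproteasome median fell to 0.0067 with the restricted probe sets, where Psmb8 drops out and 2 genes remain, and was 0.043 to 0.11 with 1 array left out. With 1 array left out Psmb8 minus Psmb5 ran from -5e-05 to 0.054, Psmb9 minus Psmb6 from -0.074 to -0.028 and Psmb10 minus Psmb7 from -0.27 to -0.11.

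Reversals occurred in 37 of 711 values of the 48 genes, in 15 genes, none of them past the threshold; the cause was not tested. With renewed quantile normalization Psmc3 had -0.0065. With array weights Psma1 had 0.0043, Psma8 -0.052, Psmd5 -0.0077, Psme3 0.026 and Psmf1 0.0014. Averaging all probe sets, Psmb4 had 0.040, Psmc4 0.016, Psmc6 -0.020, Psmd6 -0.020 and Psme3 0.036. With the restricted probe sets Psma5 had -0.21 (a dim probe set), Psmb4 0.12, Psmc4 0.037, Psmc6 -0.10 and Psmf1 0.042, and of the other lists Nfya 0.087 and Zfand5 -0.094. With 1 array left out the changes ran from -0.032 to 0.015 (Psma1), -0.15 to 0.12 (Psma8), -0.13 to 0.029 (Psmb4), -0.018 to 0.024 (Psmc3), -0.076 to 0.039 (Psmc4), -0.011 to 0.026 (Psmc6), -0.024 to 0.040 (Psmd11), -0.015 to 0.037 (Psmd5), -0.0078 to 0.12 (Psmd7), -0.078 to 0.021 (Psme3), -0.033 to 0.0012 (Psme4), -0.083 to 0.0056 (Psmf1), -0.0078 to 0.047 (Psmg3) and -0.032 to 0.032 (Ufd1).

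The replicate block called 0 proteasome genes and 234 higher and 134 lower genes of all tested, against 179 and 95 without it. The shared numbers are not stated to pair mice, so they were not taken as pairs. Same-numbered arrays correlated at 0.039, -0.018 and 0.070 in their deviations from the group means. For sufficient replicates 1 and 3 the best match was the deficient-labelled array of the same number. These correlations do not settle whether the arrays are paired. Without the trend 31 of all genes were higher and 23 lower, and with array weights 400 and 185. With 1 array left out between 35 and 165 were higher and between 24 and 105 lower. The probe sets of 6 of the 48 genes (Psma6, Psmb4, Psmc2, Psmd11, Psme4 and Psmf1) can read near-identical copies. Of 24 further probe sets above the dim range, 16 had the sign of the one used and 8 the opposite.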
